A study of Mus musculus with 24 samples.

Results

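Wnt proteins are secreted, lipid-modified ligands that bind Frizzled receptors on neighbouring cells. With Lrp5 or Lrp6 as coreceptor they stabilise beta-catenin, and with receptors such as Ror1, Ror2 or Ryk they act on cell polarity and movement without it. The dermal papilla (DP), a cluster of fibroblasts at the base of the hair follicle, is both a source and a target of Wnt signals, and the pathway is known for its part in starting and maintaining anagen, the growth phase that follows telogen, the resting phase. The ligands described here are Wnt2, Wnt2b, Wnt4, Wnt5a, Wnt5b, Wnt6, Wnt9a, Wnt10a, Wnt10b and Wnt11. They were taken by gene name, without regard to their values, and all 10 were found among the 25755 genes measured. As background, Wnt10a and Wnt10b are classed with the ligands that act through beta-catenin, Wnt5a and Wnt5b with those that mostly do not, and the class of the others depends on the receptors at hand.

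RNA was sequenced from DP cells of control and dM1/2 mice at 4 ages, with 3 libraries for each of the 8 groups, each library from the skin of a single mouse. Every mouse carried Corin-Cre, which is active in the DP after birth, and a YFP reporter in the ROSA26 locus by which the cells were sorted. In dM1/2 mice all copies of the histone deacetylase genes Hdac1 and Hdac2 were floxed (Cor-cre/+; Hdac1 Flox/Flox; Hdac2 Flox/Flox), whereas controls also carried Corin-Cre and floxed copies of these genes but kept at least 1 copy that was not floxed. The methods allow several control genotypes, among them Hdac1 Flox/Flox with Hdac2 Flox/+, and the labels do not say which a library has. P20 was the first telogen (females by the methods), P24 and P28 were early and mid anagen of the second cycle (males), and P60 was the second telogen (both sexes). Between ages, therefore, hair-cycle stage, sex and sequencing depth cannot be told apart.

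Levels are given as normalized reads, the read count of a gene divided by the size factor of its library. Depth on genes was 8171944 to 13369732 reads per library in telogen and 35469841 to 49331751 in anagen. DP markers were present in every library (Corin at 133 normalized reads or more, Alpl at 123 or more), while Epcam of keratinocytes (33.7 or less) and Cd3e of T cells (12.6 or less) were low. Other cells were not absent. Summed over their lists, markers of keratinocytes ran from 200.9 to 943.7 and immune markers from 63.4 to 756.0. Skeletal muscle markers ran from 47.4 to 1396.8 and endothelial markers from 367.9 to 6109.5, against 19467.0 to 361273.7 for DP markers. Dermal sheath markers ran from 3299 to 17034. Markers of other fibroblasts, a list with Col1a1 and Col3a1, ran from 498283 to 11321036, above the DP sum in every library. The target gene Hdac1 was lower in all 3 dM1/2 libraries than in any control at P20 and P24, but not at P28 or P60. At P28 the library labelled control replicate 3 held 105 normalized reads of Hdac1 against 126 to 190.2 in dM1/2. Hdac2 fell at no age, and a count over whole genes includes exons that the deletion leaves in place. Libraries that stood apart were the library labelled P28 control replicate 3 and P28 control replicate 2, with summed levels of 9 markers of other fibroblasts of 498283 and 8484081 against 3368055 in replicate 1, and P60 dM1/2 replicate 1, with a summed level of 7 endothelial markers of 6110 against 1214 to 3010.0 in the other P60 libraries.

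Promoter sequence is shown for 3 of the ligands whose RNA rose in dM1/2 anagen (Wnt4, Wnt6 and Wnt11) and for Wnt5b, which fell, because promoters are among the sites where histone deacetylases act. The sequences are from RefSeq on GRCm38.p6 and run 5′ to 3′ on the strand of the gene, up to the last base before the first annotated start. Capitals mark matches, on either strand, to 5 motifs: the GC box (GGGCGG or CCGCCC), the CCAAT box (CCAAT or ATTGG), the TATA box (TATAAA or TTTATA), the core of TCF/LEF sites (CTTTG or CAAAG) and the E-box (CACGTG). Wnt4 lies at chr4:137277489-137299726 on the plus strand, and the stretch, chr4:137277385-137277488, holds 104 of the 250 bases before its RefSeq start, since GENCODE places the start of the gene further upstream. Wnt6 lies at chr1:74771892-74785322 on the plus strand, and the stretch is chr1:74771642-74771891. Wnt11 lies at chr7:98835112-98855195 on the plus strand, and the stretch, chr7:98834862-98835111, precedes the first of 2 RefSeq starts. Wnt5b lies at chr6:119432531-119544347 on the minus strand, and the stretch, chr6:119544348-119544597, precedes the first of 3 RefSeq starts. Which start the DP uses is not known from counts per gene.
Wnt4: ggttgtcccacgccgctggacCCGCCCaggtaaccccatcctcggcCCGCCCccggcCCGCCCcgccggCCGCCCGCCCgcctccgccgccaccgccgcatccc
Wnt6: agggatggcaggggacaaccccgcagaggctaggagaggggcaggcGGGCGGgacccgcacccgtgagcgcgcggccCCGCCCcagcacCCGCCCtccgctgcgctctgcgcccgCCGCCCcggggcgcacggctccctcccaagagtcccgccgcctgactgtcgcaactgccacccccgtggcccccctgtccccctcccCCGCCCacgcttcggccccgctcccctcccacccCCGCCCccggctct
Wnt11: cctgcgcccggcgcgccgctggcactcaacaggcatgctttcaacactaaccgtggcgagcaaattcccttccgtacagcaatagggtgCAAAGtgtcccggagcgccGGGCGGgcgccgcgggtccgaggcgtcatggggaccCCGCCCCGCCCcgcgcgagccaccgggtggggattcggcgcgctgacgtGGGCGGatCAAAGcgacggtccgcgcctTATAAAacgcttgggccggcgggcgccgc
Wnt5b: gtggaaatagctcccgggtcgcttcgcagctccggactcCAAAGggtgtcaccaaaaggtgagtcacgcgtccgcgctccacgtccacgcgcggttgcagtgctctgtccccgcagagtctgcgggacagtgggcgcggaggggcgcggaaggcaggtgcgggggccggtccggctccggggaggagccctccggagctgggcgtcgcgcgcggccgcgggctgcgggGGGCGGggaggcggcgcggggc

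A RefSeq promoter was found for 8 of the 10 ligands, all but Wnt5a and Wnt10a. In the 250 bases before the RefSeq start, GC boxes were the commonest match. They occurred in 8 of the 11 promoters of these ligands, whereas 32.7% of 32841 RefSeq promoters of that length held one. Counted by gene, at least 1 promoter of 7 of the 8 ligands had a match. There were 8 matches in Wnt4 (5 of them in the stretch shown), 6 in Wnt6, and 4 and 1 before the first starts of Wnt11 and Wnt5b, some of them overlapping. Wnt11 was alone among the 8 in having a TATA box, 29 to 24 bases before its start (12.4% of all promoters). TCF/LEF cores occurred in Wnt11 and Wnt5b (48.6% of all promoters), CCAAT boxes in Wnt2 and Wnt2b (33.9%) and an E-box in Wnt9a (6.02%). The share of G and C before the first RefSeq starts was 85.2% in Wnt4, 79.6% in Wnt6, 70.8% in Wnt11 and 75.2% in Wnt5b. The median over all promoters was 52.4%. These windows held 44, 28, 37 and 35 CpG dinucleotides against a median of 6. Before the later starts the share was 56.8% in Wnt11 and 53.2% and 55.6% in Wnt5b, with 16, 4 and 7 CpG dinucleotides. These matches describe the letters of the sequence and are not measured binding sites.

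In the sorted cells of controls the make-up of the ligand pool differed sharply between telogen and anagen. Levels of different genes were compared as normalized reads per kilobase of exon. In P20 controls Wnt10a, Wnt6 and Wnt5a stood at about the same level, 617 ± 122, 579 ± 163 and 557 ± 90.5 per kilobase (SD, n = 3), and their libraries overlapped. They made up 25.4%, 23.7% and 23.4% of the summed level of the 10 ligands and the other 9 Wnts. At P24 Wnt5a alone made up 76.0% ± 5.66 (SD, n = 3) of that sum, with 2218 ± 607 per kilobase, and the next in order, Wnt5b, had 282 ± 35.4. Wnt5a (52.6% ± 8.39) and Wnt5b (24.4% ± 3.76) still led at P28. By P60 Wnt5a, Wnt6 and Wnt10a were again the 3 highest, at 426 ± 63.1, 348 ± 101 and 307 ± 102 per kilobase, without a gap between neighbours. Lower in the order, Wnt2, Wnt9a, Wnt10b and Wnt2b mostly overlapped with their neighbours. The summed level of DP markers was 37299 to 43521 in P20 controls and 281480 to 353612 in P24 controls. At P28 and P60 it was 134000 to 361274 and 32396 to 42867. That of other fibroblast markers was 8728629 to 11321036 at P20 and 1316705 to 2874346 at P24. At P28 and P60 it was 498283 to 8484081 and 1880069 to 2263159. What part these cells had in the make-up of the pool was not tested.

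In dM1/2 anagen that order was not the same. At P28 the highest ligand was Wnt6, at 708 ± 139 per kilobase (SD, n = 3), followed by Wnt5a at 431 ± 31.1, then Wnt4 at 196 ± 24.0 and Wnt11 at 163 ± 13.4, which overlapped, and Wnt5b at 111 ± 0.959. The share of Wnt6 was 40.3% ± 4.21 in dM1/2 and 3.35% ± 0.687 in controls, and that of Wnt5a was 24.8% ± 2.87 and 52.6% ± 8.39. At P24 Wnt5a kept the first place in dM1/2, with a share of 52.3% ± 8.62, and Wnt6 was second, at 356 ± 91.2 per kilobase. The summed level over all these ligands was 1748 ± 177 per kilobase in P28 dM1/2 and 1415 ± 171 in P28 controls, without overlap between libraries (1567 to 1920.0 and 1220 to 1540.4), but it was not tested. Without Wnt5a it was 1317 ± 178 in dM1/2 and 662 ± 34.6 in controls. At P24 the sum ran the other way, 2099 ± 192 in dM1/2 and 2890.0 ± 596 in controls, with overlap. In bulk samples, fewer cells that make a ligand and less of its RNA per cell cannot be told apart.

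**Figure D1:**
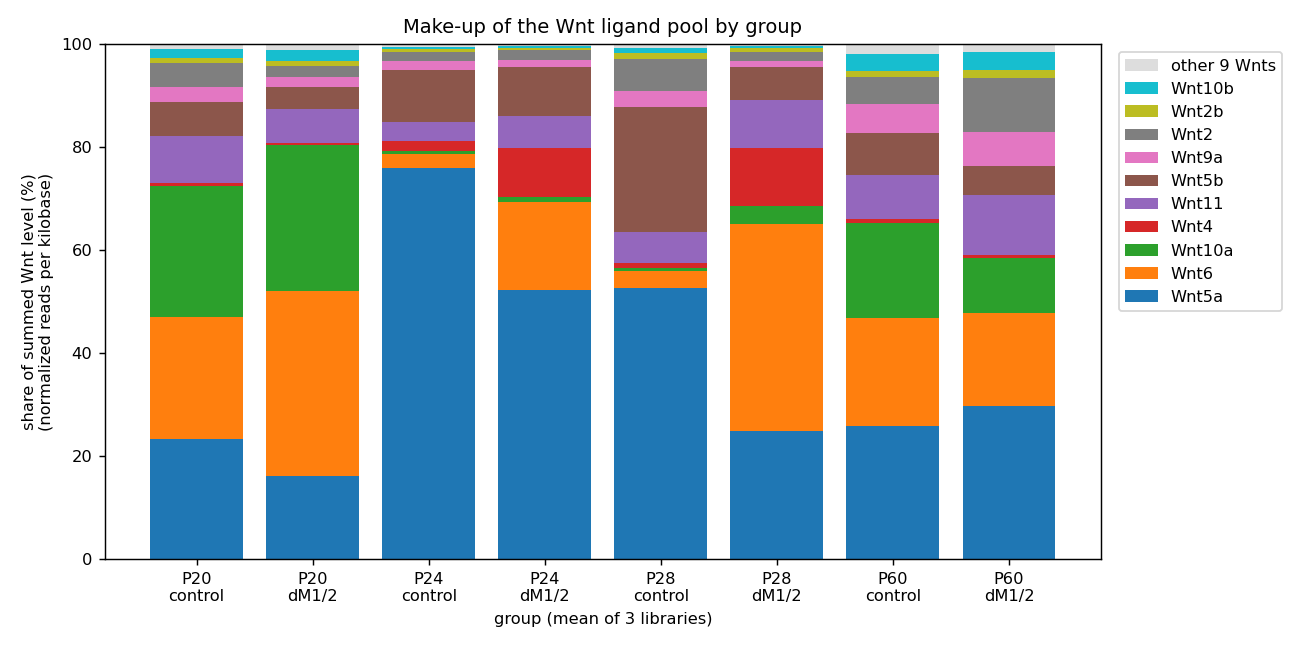
Share of each Wnt ligand in the summed level of all Wnt ligands (normalized reads per kilobase of exon, in percent), as the mean of 3 libraries per group, for control and dM1/2 DP cells at 4 ages. Wnt5a takes 76.0% in P24 controls and 24.8% in P28 dM1/2, where Wnt6 takes 40.3%.

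The comparison of dM1/2 with control within each age asks which ligands differ in level between the genotypes in the sorted cells. All 10 ligands passed the filter on low values at every age. A ligand is said to have risen or fallen where its adjusted p-value (limma, Benjamini-Hochberg over all genes tested) was under 0.05. At P20 none of the 10 did so, with 3 at an unadjusted p under 0.05, where 0.433% of 13845 genes were called. At P24, 5 changed, with 2 higher (Wnt4 and Wnt6) and 3 lower (Wnt5a, Wnt5b and Wnt9a), where 26.6% of 14028 genes were called (14.8% higher and 11.8% lower). At P28, 6 changed, with 4 higher (Wnt4, Wnt6, Wnt10a and Wnt11) and 2 lower (Wnt5a and Wnt5b), where 35.5% of 14126 genes were called (20.0% higher and 15.6% lower). The count at P24 was 3 without control replicate 1 or 2 or dM1/2 replicate 1, and 1, Wnt6, without dM1/2 replicate 2 or 3. At P28 it was 4 without control replicate 1 or any of the dM1/2 replicates, and 8 without the library labelled control replicate 3. At P60 none changed, none had an unadjusted p under 0.05, and no gene of 14042 was called (0.0%). DESeq2 on the recovered reads called 1 ligand at P20, Wnt6, and edgeR none at P20 or P60. Libraries of the genotypes did not overlap for 3, 5, 6 and 1 of the ligands at P20, P24, P28 and P60, against 25.4%, 44.8%, 51.3% and 8.87% of all genes tested. The median absolute log2 fold change of the 10 ligands was 0.54 at P24 and 0.98 at P28, and that of all genes was 0.37 and 0.48.

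**Figure D2:**
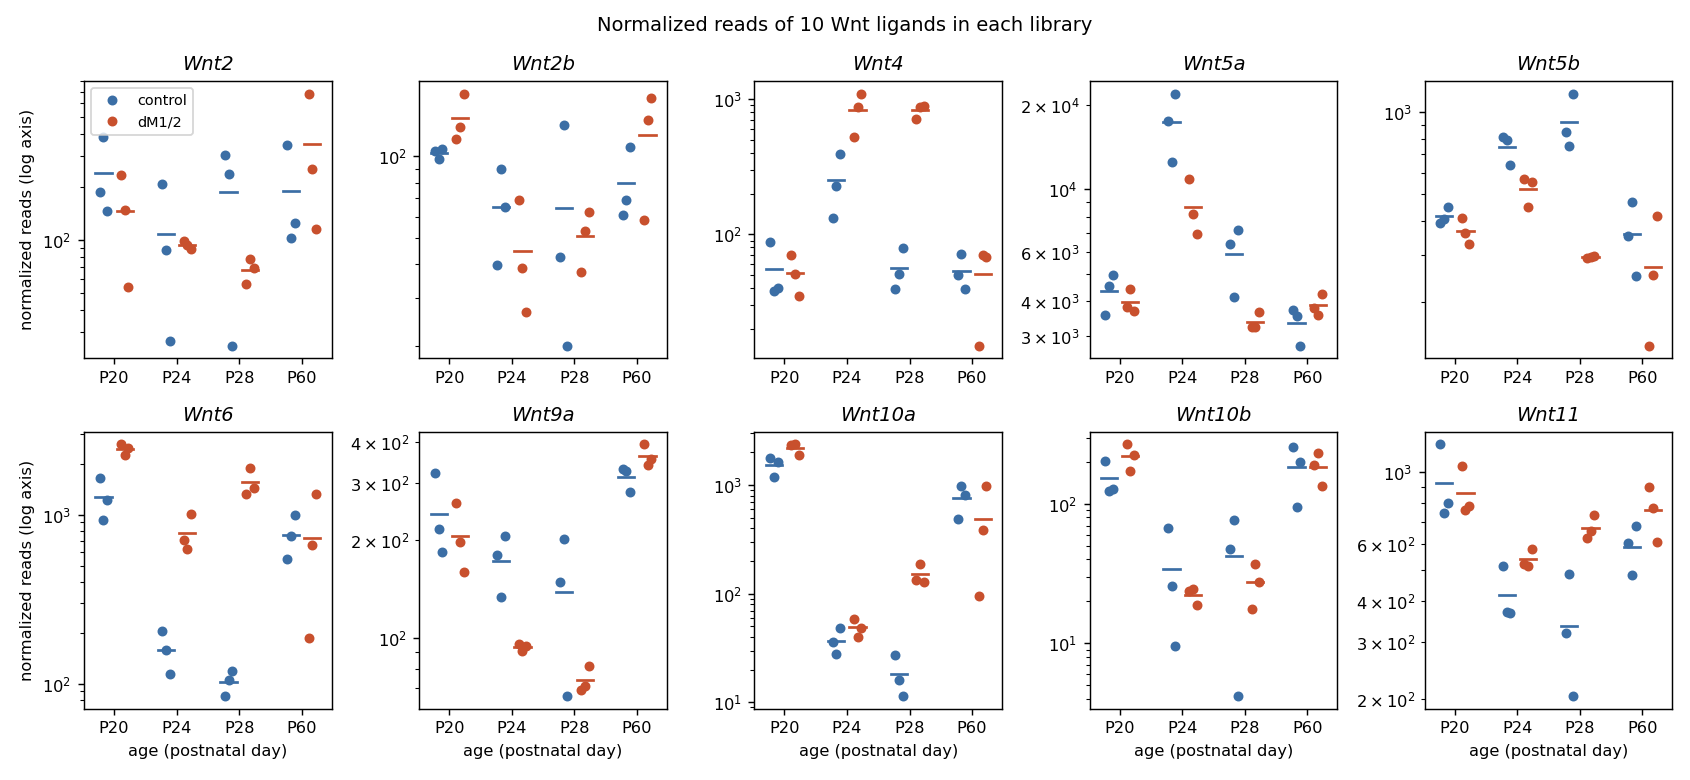
Normalized reads (log axis) of each of the 10 Wnt ligands in each of the 24 libraries, by age. Each point is a library, short lines are group means, controls are blue and dM1/2 orange. In Wnt4 and Wnt6 the dM1/2 points lie above all controls at P24 and P28, and in Wnt5a and Wnt5b below them.

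Wnt6 and Wnt10a are neighbours on chromosome 1, on the same strand and 6194 bases apart (Wnt10a, chr1:74791516-74804179). Both were abundant in telogen and low in anagen controls. Wnt6 stood at 1647, 936 and 1228 normalized reads in P20 controls, at 205, 159 and 115 in P24 controls, and at 84.4, 105.0 and 119 in P28 controls. In dM1/2 it was 2610.4, 2266 and 2482 at P20, 709.5, 626 and 1006 at P24, and 1322, 1896 and 1435 at P28. At these 3 ages every dM1/2 library was above every control, and at P28 the level was within the range seen in P20 controls or above it. Wnt6 rose by 2.29 ± 0.26 (SE) on the log2 scale at P24 (adjusted p = 0.00175) and by 3.90 ± 0.20 at P28 (14.9-fold, adjusted p = 0.000161). Both rises held with each library left out in turn. The difference of 0.98 ± 0.19 at P20 had an adjusted p of 0.0578, and of 0.0129 without P20 control replicate 1. At P20 the summed level of 15 DP markers was 37299 to 43521 in controls and 52075 to 64687 in dM1/2. That of 9 markers of other fibroblasts was 8728629 to 11321036 in controls and 4662544 to 6205125 in dM1/2. Their part in the P20 values of Wnt6 and Wnt10a was not tested.

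Wnt10a behaved otherwise at the start of anagen. It was 1760, 1182 and 1626 normalized reads in P20 controls and 35.6, 27.6 and 48.0 in P24 controls, a fall of 41.1-fold between group means, and it was 2326, 2379 and 1877 at P20 and 58.5, 40 and 48.4 at P24 in dM1/2, 44.8-fold lower. At P24 the genotypes overlapped, with a log2 fold change of 0.41 ± 0.30 (adjusted p = 0.354). By P28 controls held 27.4, 16 and 11.4 and dM1/2 133, 189.8 and 128 normalized reads. The rise at P28 was 3.04 ± 0.36 on the log2 scale (8.22-fold, adjusted p = 0.00137), and it held without each library in turn. The P28 dM1/2 mean of 151 was nonetheless far under the 1523 of P20 controls. At P20 dM1/2 was above control in all libraries, by 0.54 ± 0.17 (adjusted p = 0.13, and 0.0403 without P20 control replicate 1).

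At P60 both genes varied widely among dM1/2 libraries. Wnt6 was 187, 661 and 1334 in dM1/2 and 548, 748 and 991 in controls, and Wnt10a was 95.9, 387 and 988 in dM1/2 and 487, 982 and 805 in controls. Both minima were in dM1/2 replicate 1, the library with the high endothelial sum, in which the summed level of 15 DP markers, 19467, was also the lowest of all 24. Without that library the log2 fold change of Wnt6 went from -0.43 to 0.34 and that of Wnt10a from -1.13 to -0.23, with no call. What part the other cells had in these values was not tested.

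Wnt4, a ligand best known from the kidney and the female reproductive tract, was low in telogen and had a brief peak in control anagen. It was 88.4, 37.9 and 40.2 normalized reads in P20 controls, 133, 227 and 392 in P24 controls, and 39.6, 51.2 and 78.9 in P28 controls. In dM1/2 it was 70.5, 50.9 and 35.1 at P20, 519, 875 and 1092 at P24, and 705, 867 and 890.0 at P28. Thus the controls were near their telogen level at P28, while dM1/2 stayed at its P24 level. Every anagen dM1/2 library was above every control library of the series. The control step from P24 to P28 was not called by limma (-2.05 ± 0.44, adjusted p = 0.0782), but it was by DESeq2. Wnt4 rose by 1.79 ± 0.41 (SE) on the log2 scale at P24 (3.46-fold, adjusted p = 0.0178) and by 3.89 ± 0.27 at P28 (14.8-fold, adjusted p = 0.000294). The P28 rise held without each library in turn. At P24 the adjusted p was 0.0542, 0.0594 and 0.072 without control replicate 2, dM1/2 replicate 2 and dM1/2 replicate 3. At P60 it was 50.4, 71.5 and 39.2 in controls and 15.1, 70.4 and 68.2 in dM1/2, which overlapped. Several Wnt ligands are made by keratinocytes, and the summed level of the 15 of 16 listed keratinocyte markers that were measured was 218 to 411 in P28 controls and 235 to 374 in P28 dM1/2, and 201 to 839 and 237 to 305 at P24. Krt14, their defining keratin, was between 1.71 and 19.9 in the P28 libraries. Of these markers 10 were tested at P24, of which 2 fell, and 8 at P28, of which 1 rose. Among all genes, 26.6% and 35.5% were called. The part of keratinocytes in the Wnt4 values was not tested.

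Wnt11, known for directing cell movements in the embryo, was highest in telogen controls (1216, 747 and 800.2 normalized reads at P20) and lower in anagen controls (515, 371 and 368 at P24, and 318, 485 and 204 at P28). In dM1/2 it was 1041, 764 and 784 at P20, 522, 514 and 578 at P24, and 628, 657 and 735 at P28. The genotypes overlapped at P24 and were separate at P28. Wnt11 rose by 1.09 ± 0.30 (SE) on the log2 scale at P28 (2.12-fold, adjusted p = 0.0288), and the adjusted p was between 0.0737 and 0.0944 without control replicate 1 or any of the dM1/2 replicates. At P24 the difference was 0.38 ± 0.16 (adjusted p = 0.125, and 0.0382 without control replicate 1). At P60 controls held 604, 481 and 680.1 and dM1/2 899, 774 and 609.5, with a difference of 0.37 ± 0.20 (adjusted p = 0.986).

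Wnt5a (chr14:28504750-28527448, plus strand), the ligand best known for signalling through Ror receptors, led the ligands of anagen controls per kilobase, as given above. It held 3576, 4529 and 4959 normalized reads in P20 controls and 17610, 12479 and 21966 in P24 controls, 3.98-fold higher between group means. P28 controls held 6388, 4126 and 7169, and P60 controls 3701, 3532 and 2774. The dM1/2 libraries held 3807, 4397.5 and 3669 at P20, 10855, 8142 and 6918 at P24, 3237, 3231 and 3656 at P28, and 3784, 3575 and 4248 at P60. So a peak at P24 was present in both genotypes, but the dM1/2 peak was 2.18-fold above P20, and no anagen dM1/2 library reached any control of its age. Wnt5a fell by 0.99 ± 0.26 (SE) on the log2 scale at P24 (1.99-fold, adjusted p = 0.0265) and by 0.77 ± 0.22 at P28 (1.70-fold, adjusted p = 0.0333). These calls rested on few libraries. Without P24 control replicate 1, dM1/2 replicate 2 or dM1/2 replicate 3 the adjusted p was 0.0644, 0.0792 and 0.0913, and at P28 it was 0.0764 to 0.114 without control replicate 1 or any of the dM1/2 replicates. The antisense gene Gm2670, which lies within Wnt5a, was at 167 normalized reads or less in every library. Whether reads of the overlap were counted for either gene depends on the strand setting of the counting, and its part in the Wnt5a values was not tested.

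Wnt5b, the closest relative of Wnt5a, rose less in control anagen and stayed high at P28. Controls held 391, 406 and 450.3 normalized reads at P20, 814, 789 and 640.3 at P24, 846, 750.0 and 1172 at P28, and 351, 467 and 251 at P60. In dM1/2 the values were 409, 361 and 327 at P20, 569, 448 and 554 at P24, 293, 294 and 297.5 at P28, and 139, 251 and 417 at P60. At P28 the 3 dM1/2 libraries were nearly equal and far under the controls. Wnt5b fell by 1.62 ± 0.18 (SE) on the log2 scale at P28 (3.07-fold, adjusted p = 0.00107), and this held without each library in turn. The fall of 0.51 ± 0.15 at P24 (adjusted p = 0.0416) was lost without any of 5 of the 6 libraries, all but control replicate 3, with adjusted p from 0.0715 to 0.138, and in the fit over all 24 libraries (adjusted p = 0.186). Fbxl14 lies within Wnt5b on the opposite strand. It held 450 to 526 normalized reads in P28 controls and 487 to 540.4 in P28 dM1/2, and whether its reads were kept apart from those of Wnt5b depends on the strand setting of the counting, which the sources used here do not give.

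**Figure D3:**
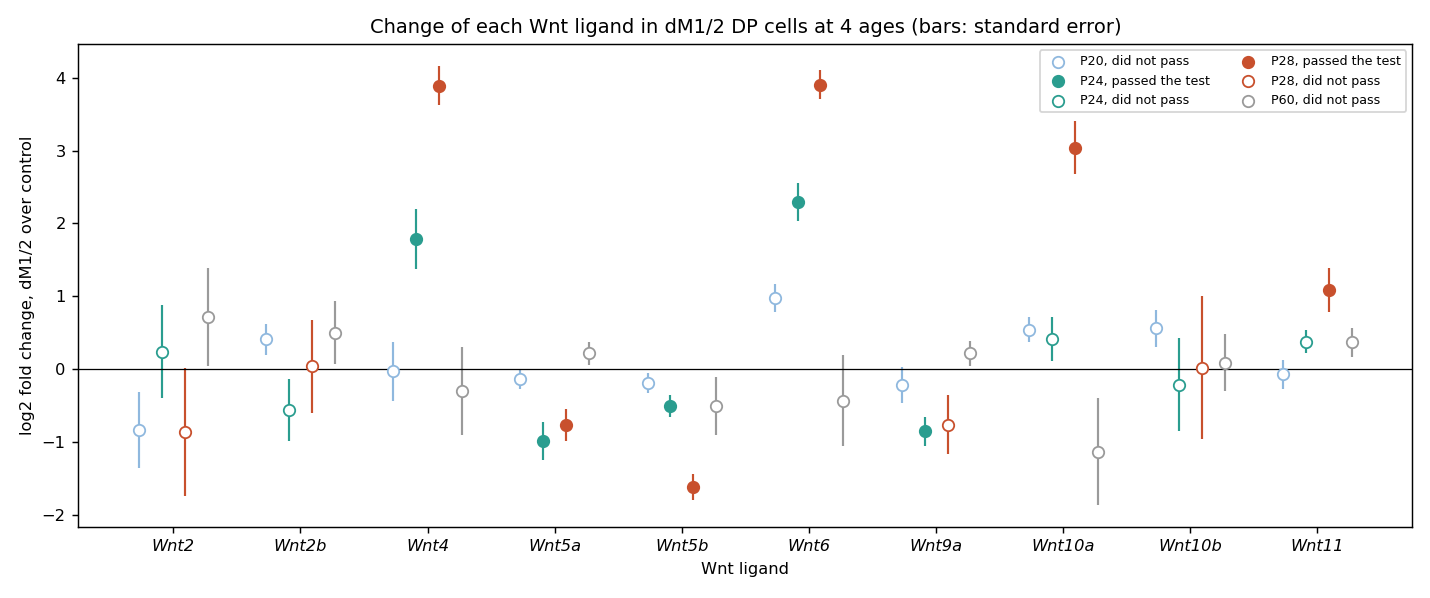
Log2 fold change of dM1/2 over control for each of the 10 Wnt ligands at P20, P24, P28 and P60, with standard errors, from limma on 3 against 3 libraries. Filled points passed the test (adjusted p under 0.05) and open points did not. All filled points are at P24 or P28.

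Wnt9a (chr11:59306928-59333552), known from joint formation, was the third ligand to fall at P24. P24 controls held 179.5, 133 and 206 normalized reads and dM1/2 95.6, 91.0 and 94.4, without overlap. The fall was 0.85 ± 0.20 (SE) on the log2 scale (1.81-fold, adjusted p = 0.0195), and the adjusted p was 0.0562 to 0.0598 without control replicate 1 or any of the dM1/2 replicates. At P28 controls held 148, 200.5 and 66.0 and dM1/2 69.1, 71.1 and 81.9, and the log2 fold change of -0.76 ± 0.40 had an adjusted p of 0.189. The low control was the library labelled replicate 3, without which the change was -1.21 (adjusted p = 0.00539). In telogen Wnt9a was 321, 216 and 184 in controls and 259, 197 and 159 in dM1/2 at P20, and 329.5, 326.5 and 281 in controls and 394, 339 and 355 in dM1/2 at P60. It was the single ligand whose genotypes did not overlap at P60, with a log2 fold change of 0.22 ± 0.17 (adjusted p = 0.986).

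Wnt2, Wnt2b and Wnt10b changed at no age with all libraries in the fit. Wnt10b (chr15:98770712-98778150), a ligand known for its part in the onset of anagen, was 124 to 204 normalized reads in P20 controls, 173 to 268 in P20 dM1/2, and 95.3 to 256 in either genotype at P60, but only 9.53 to 67.7 in P24 and 4.17 to 76.2 in P28 controls. Wnt2 (chr6:17988940-18030585) was 304, 237 and 25.0 in P28 controls and 55.9, 78.0 and 69.5 in dM1/2. Wnt2b (chr3:104945272-104961921) was 42.6, 131 and 20.1 in P28 controls and 37.5, 53.1 and 62.2 in dM1/2, and Wnt10b was 47.4, 76.2 and 4.17 against 17.5, 36.9 and 27.7. In all 3 genes, as in Wnt9a, Wnt10a and Wnt11, the lowest P28 control was the library labelled replicate 3. In Wnt4, Wnt5a, Wnt5b and Wnt6 it was the highest P28 control. That library also had the lowest sum of the fibroblast markers (498283) and the highest sum of the DP markers (361274) of that group. The summed level of 7 endothelial markers was 1578.5, 1363.5 and 367.9 in P28 controls and 513.4, 488.9 and 583.7 in P28 dM1/2. At each of the 4 ages the library with the most Wnt2 was also the one with the highest endothelial sum. They were P20 control replicate 2 (386.9 for Wnt2, 1477.1 for the sum) and P24 control replicate 1 (208.5 and 1055.5). At P28 and P60 they were control replicate 1 (303.6 and 1578.5) and dM1/2 replicate 1 (681.6 and 6109.5). The part of these 3 groups of markers in these ligands, Wnt2 among them, was not tested. Of the 9 fibroblast markers none was called in either direction at P24 or P28, and their summed level was 1314784 to 2617895 in P28 dM1/2. Without the library labelled replicate 3, Wnt2 fell by 1.98 at P28 (adjusted p = 0.000739). The changes of Wnt10b and Wnt2b were then -1.17 and -0.57 on the log2 scale, with no call, and 8 of the 10 ligands were called in place of 6. The directions of Wnt4, Wnt5a, Wnt5b, Wnt6, Wnt10a and Wnt11 and their calls were the same without it.

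Whether the effect of genotype differed between anagen and telogen was tested over all 24 libraries, as the mean effect at P24 and P28 less the mean effect at P20 and P60. It did for 5 of the 10 ligands, where 30.2% of 14243 genes were called (16.1% with a more positive and 14.1% with a more negative effect). The effect was more positive in anagen for Wnt4 by 3.01 ± 0.50 on the log2 scale (SE, adjusted p = 0.00023), for Wnt6 by 2.82 ± 0.44 (adjusted p = 0.00014) and for Wnt10a by 2.02 ± 0.52 (adjusted p = 0.00653). It was more negative for Wnt5a, with -0.93 ± 0.22 (adjusted p = 0.00311), and for Wnt9a, with -0.80 ± 0.29 (adjusted p = 0.0436). For Wnt10a the effect at P24, 0.41, was no larger than that at P20, 0.54. Its effects at P28 and P60 were 3.04 and -1.13. The call of Wnt9a held in 5 of the 24 fits without a single library, with adjusted p from 0.0017 to 0.0834. Wnt5b narrowly missed the threshold (-0.72 ± 0.28, adjusted p = 0.0538) and passed it without P24 control replicate 3, P28 control replicate 2, P60 control replicate 2 or P60 dM1/2 replicate 1 (adjusted p from 0.00357 to 0.0483). Wnt11 had a difference of 0.59 ± 0.25 (adjusted p = 0.0803), and of 0.74 without P28 control replicate 2 (adjusted p = 0.014).

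Between early and mid anagen, the effect of genotype differed for 1 ligand, Wnt10a, by 2.63 ± 0.47 on the log2 scale (SE, adjusted p = 0.0383), where 0.707% of 14139 genes were called. This call was lost without any of 8 of the 12 libraries, with adjusted p up to 0.126. For Wnt4, Wnt6 and Wnt5b the difference was 2.09 ± 0.55, 1.60 ± 0.35 and -1.10 ± 0.24, with adjusted p of 0.119, 0.0652 and 0.0652, and for Wnt5b it passed without P28 control replicate 2 (-1.24, adjusted p = 0.0358). Within dM1/2, from P24 to P28, Wnt6 and Wnt10a rose by 1.0 ± 0.20 and 1.60 ± 0.23 (adjusted p = 0.0396 and 0.0151) and Wnt5a and Wnt5b fell by 1.33 ± 0.17 and 0.82 ± 0.13 (adjusted p = 0.00886 and 0.0194), which made 4 of 10 where 2.67% of 14032 genes were called (1.69% higher and 0.983% lower). This count was 0 without P28 dM1/2 replicate 2 and 2 without P24 dM1/2 replicate 1 or P28 dM1/2 replicate 3. Within controls none of the 10 was called over the same step by limma, where 1.46% of 13966 genes were, and 3 had an unadjusted p under 0.05. Wnt5a had a change of -1.56 ± 0.30 (adjusted p = 0.0641) and Wnt4 of -2.05 ± 0.44 (adjusted p = 0.0782), and DESeq2 called these 2. Over the 4 ages, limma's F test in controls called 8 ligands, all but Wnt2 and Wnt2b, where 49.0% of 14066 genes were called. The strongest was Wnt10a (adjusted p = 1.1e-06), followed by Wnt6 (adjusted p = 1.91e-05).

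Of the other 9 Wnts on the list, Wnt1, Wnt3, Wnt3a, Wnt7a, Wnt8a and Wnt8b stood at 12.6 normalized reads or less in every library and entered no test. Wnt9b, a ligand of the developing kidney and face, was 30.4, 16 and 74.3 normalized reads in P28 controls and 5.54, 6.43 and 3.61 in P28 dM1/2. It fell by 2.50 ± 0.60 (SE) on the log2 scale (5.64-fold, adjusted p = 0.0182), with adjusted p from 0.051 to 0.0621 without control replicate 1 or any of the dM1/2 replicates. Wnt7b was low in P28 controls (2.17, 0.64 and 0.76) and higher in all P28 dM1/2 libraries (6.82, 11.1 and 6.82), under the filter. Wnt16 was 88.4, 62.2 and 94.6 in P20 controls and 125, 148 and 142 in P20 dM1/2 (log2 fold change 0.77 ± 0.23, adjusted p = 0.122). In control anagen Wnt16 was lower at P28 than at P24, with 10.4, 7.04 and 7.96 after 44.5, 34.6 and 72.6 (log2 fold change -2.39 ± 0.40, adjusted p = 0.0484).

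The genes that make, release and receive Wnt ligands were read from lists of the pathway. Counts of their calls stand against 26.6% of all genes called at P24 (14.8% higher and 11.8% lower) and 35.5% at P28 (20.0% higher and 15.6% lower). Of 7 genes of ligand acylation and release, 6 fell and 1 rose at P24, and 2 fell at P28, the latter a smaller share than that of all genes, with a median log2 fold change of -0.58 and -0.38 against -0.013 and 0.004 over all genes tested. The faller with the clearest role is Porcn, which attaches the lipid that Wnts need to leave the cell. It was 226, 267 and 192 normalized reads in P24 controls and 106, 103 and 105 in P24 dM1/2, a fall of 1.11 ± 0.17 (SE, adjusted p = 0.00454), and it fell by 1.27 ± 0.29 at P28 (adjusted p = 0.0147, and 0.0538 without dM1/2 replicate 2). Wls, which carries Wnts to the cell surface, fell by 0.47 ± 0.11 at P24 (adjusted p = 0.0205) and had a log2 fold change of -0.46 ± 0.18 at P28 (adjusted p = 0.0942). The glypican Gpc6, a cell-surface proteoglycan, fell by 2.45 ± 0.19 at P28 (adjusted p = 0.000404), from 5619, 4422 and 7369 to 1054, 1079 and 982. Sdc1, another proteoglycan, was the 1 that rose at P24 (0.78 ± 0.19, adjusted p = 0.0203).

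Of 12 Frizzled and Lrp receptors, 1 fell at P24 (Fzd8), and 2 rose and 2 fell at P28, no larger a share than that of all genes (26.6% and 35.5%). Fzd1 fell by 2.04 ± 0.27 (SE, adjusted p = 0.00181) and the coreceptor Lrp6 by 0.76 ± 0.13 (adjusted p = 0.00492) at P28, while Fzd9 rose by 1.70 ± 0.34 (adjusted p = 0.00885) and Fzd10 by 1.32 ± 0.29 (adjusted p = 0.0133). Fzd1 was 11477, 8544 and 17944 normalized reads in P28 controls and 2867, 2906 and 3009 in dM1/2, whereas Fzd9 was at 57.4 or less in these 6 libraries. Of 5 other receptors 1 fell at either age, Ror1 at P24 (-0.73 ± 0.17, adjusted p = 0.0186) and Ryk at P28 (-0.53 ± 0.13, adjusted p = 0.0221, and 0.0714 and 0.0621 without control replicate 1 and dM1/2 replicate 2). The call of Fzd10 was lost without P28 dM1/2 replicate 2 (adjusted p = 0.0579).

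Of 17 genes of the beta-catenin pathway inside the cell, 1 rose and 1 fell at P24, and 2 rose and 3 fell at P28, at both ages a smaller share than that of all genes (26.6% and 35.5%). The transcription factor Tcf7 rose at both ages, by 0.88 ± 0.17 and 0.96 ± 0.17 (SE, adjusted p = 0.00944 and 0.00598), and Pygo1, a nuclear partner of beta-catenin, fell at both, by 0.88 ± 0.16 and 0.95 ± 0.17 (adjusted p = 0.00728 and 0.00666). At P28 Bcl9l, a cofactor of beta-catenin, fell by 0.85 ± 0.17 (adjusted p = 0.0083) and Apc, of the complex that degrades beta-catenin, by 0.75 ± 0.14 (adjusted p = 0.00742). Dvl3, which relays the signal from Frizzled, rose by 0.40 ± 0.11 (adjusted p = 0.0284), with adjusted p from 0.0579 to 0.0975 without any single library but control replicate 2. Among 11 genes listed as targets of beta-catenin, 9 were tested in anagen, of which 1 rose and 3 fell at P24 and 2 rose and 3 fell at P28. The cyclin gene Ccnd1 rose 13.2-fold at P28, from 374, 644 and 251 normalized reads to 5732.5, 5435 and 4479 (3.72 ± 0.33 on the log2 scale, adjusted p = 0.000525). The feedback inhibitor Nkd1 rose by 1.24 ± 0.14 at P28 (adjusted p = 0.00103) while its relative Nkd2 fell by 1.08 ± 0.22 (adjusted p = 0.00991), and the growth factor gene Fgf7, which is also a DP marker, fell by 2.18 ± 0.41 (adjusted p = 0.00758). Fgf10, on both lists as well, fell by 1.80 ± 0.51 at P28 (adjusted p = 0.0324, and 0.0849 to 0.107 without control replicate 1 or any of the dM1/2 replicates). Of 13 genes of planar polarity, 1 rose and 2 fell at P24 and 1 rose and 3 fell at P28, again no larger a share than that of all genes. Prickle2 fell by 1.24 ± 0.17 (adjusted p = 0.00218) and Vangl1 by 0.65 ± 0.12 (adjusted p = 0.00609) at P28. Celsr3 rose 14.4-fold (3.84 ± 0.22, adjusted p = 0.000202), and Celsr1 rose at P24 (1.89 ± 0.36, adjusted p = 0.00909) and fell at P28 (-1.37 ± 0.36, adjusted p = 0.0245, and 0.0505 to 0.0818 without any of the dM1/2 replicates). At P20 and P60 no gene of these lists was called. Of the 15 DP markers, 3 rose and 7 fell at P24 and 3 rose and 5 fell at P28, and their summed level was 281480 to 353612 in P24 controls against 140802 to 186257 in P24 dM1/2, and 134000 to 361274 against 101953 to 124110 at P28. Of 7 dermal sheath markers, 3 fell at P24 and 2 at P28 and none rose, against 26.6% and 35.5% of all genes called. Their summed level was 7125 to 13864 in P24 controls against 4576 to 6728 in P24 dM1/2. At P28 it was 6814 to 13249 against 3299 to 7580. The part of the DP and dermal sheath markers in the falls above, those of the ligands included, was not tested.

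**Figure D4:**
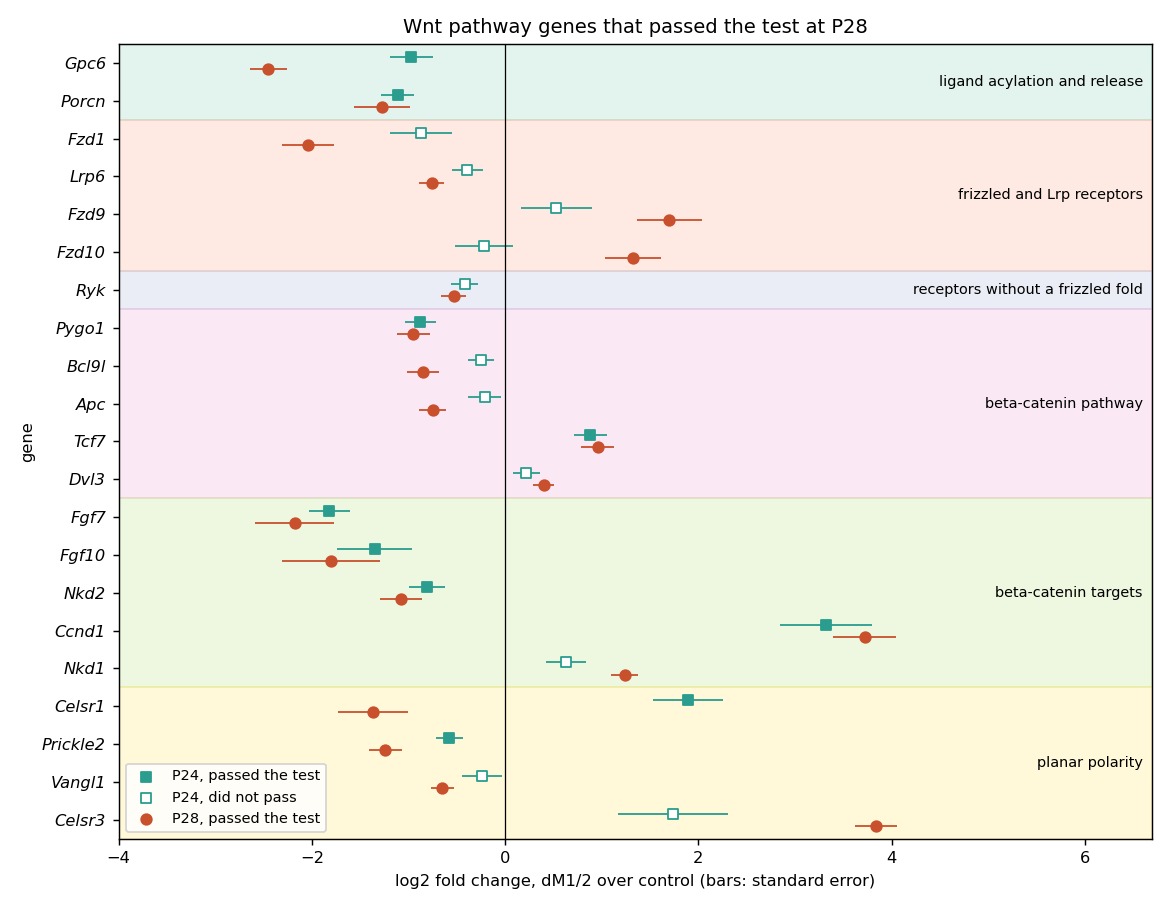
Log2 fold change of dM1/2 over control, with standard errors, for the pathway genes named by rule (up to 3 largest rises and 3 largest falls of each list at P28 among genes past the test with separate libraries). Squares are P24 and circles P28, filled where the test was passed. Ccnd1 and Celsr3 lie furthest to the right, at 3.72 and 3.84 at P28, and Gpc6 furthest to the left, at -2.45.

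Genes next to the ligands were read to see whether they moved too. Within 50 kb of a ligand, 15 genes other than the ligands themselves were tested. Of these, 4 changed at P24 (2 higher, 2 lower) and 5 at P28 (2 higher, 3 lower), shares close to the 26.6% and 35.5% of all genes. Cyp27a1, 34000 bases from Wnt6 on the same strand, was not among them, with a log2 fold change of -0.34 ± 0.49 at P24 and -0.08 ± 0.83 at P28, nor was Cdc42, 19970 bases from Wnt4. Erc2, 26213 bases from Wnt5a on the same strand, fell with it, by 2.24 ± 0.24 (SE, adjusted p = 0.00163) at P24 and 1.34 ± 0.43 (adjusted p = 0.0484) at P28. Adipor2, 14827 bases from Wnt5b, fell by 0.71 ± 0.16 at P28 (adjusted p = 0.0145). Ccdc65, 47376 bases from Wnt10b, rose by 2.0 ± 0.42 at P24 and 3.14 ± 0.39 at P28 (adjusted p = 0.0134 and 0.00155), and Arf3, 7498 bases from Wnt10b, rose by 0.47 ± 0.11 at P24 (adjusted p = 0.0188), while Wnt10b was not called. Near Wnt2, which was not called either, St7, 45915 bases away, fell by 0.68 ± 0.14 at P24 and 0.81 ± 0.14 at P28 (adjusted p = 0.011 and 0.00588). Cttnbp2nl, 39994 bases from Wnt2b, rose by 0.53 ± 0.14 at P28 (adjusted p = 0.0277).

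The genes whose levels followed each ligand most closely over the 24 libraries are given as a description, since the libraries share age and genotype. For Wnt6 they were Rprml and Cpne5 (Pearson r = 0.94 for both) and Pak1ip1 (0.923), and for Wnt10a they were Aqp5 (0.953), the cell-cycle inhibitor gene Cdkn1a (0.951) and Grasp (0.942). For Wnt4 they were Hnrnpd (0.945), Usp14 (0.94) and Aen (0.933). Wnt5a was followed by Oxnad1 (0.952), Slco4c1 (0.935) and Tpm1 (0.93), and Wnt5b by Myo18a (0.908), Gldn (0.892) and Col23a1 (0.889). Wnt9a was closest to Tns2 (0.963), Zfp36 (0.96) and Disp1 (0.951), and Wnt11 to Oaf (0.919), Zfp622 (0.868) and Irx3 (0.857). Among the 10 ligands themselves, Wnt6 with Wnt10a and Wnt9a with Wnt10b gave the highest r, 0.79 for both pairs, and Wnt5b with Wnt11 the lowest, -0.76.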

How the data were processed

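DP cells of control and dM1/2 mice were sorted, and 3 libraries were made per age and genotype, grouped here as the labels give them. Ribosomal RNA was depleted and directional libraries were sequenced. The authors trimmed reads with Trimmomatic, aligned them to mm10 (Tophat 2), counted genes of the GRCm38.p4 annotation (HTSeq) and normalized with DESeq2. The strand setting of the counting is not given in the sources used here. The deposited signal is a count scaled by the size factor of its library, in a separate table for each age, and undoing the scaling returned whole reads (within 0.01) for 100.0% of values, which gives the depth. The authors' log2 fold changes and p-values in these tables were not used.

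Log2(normalized reads + 1) was tested in limma 3.58.1 (trended prior, two-sided). Genes entered a fit if they averaged 10 normalized reads or more in it, p-values were adjusted over all of them (Benjamini-Hochberg), and 0.05 was the threshold. The log2 scale with its pseudocount understates fold changes of low genes. Genotypes were compared on 6 libraries at each age, P24 with P28 on 12, and anagen with telogen on 24. Further settings were a pseudocount of 10, no filter, a filter of 10 normalized reads in every library, the replicate number as block, edgeR 4.0.16 (TMM or DESeq2 scaling), DESeq2 1.42.0, all 24 libraries in a single fit, and omission of any single library. The neighbours of the ligands were not refitted in this way. Scripts were tested on simulated data, and no pair of libraries within a group held copies. Pairs across groups were not compared. Lengths for levels per kilobase are summed exons of GENCODE, to which 25431 of 25755 genes were matched by identifier, and promoters are from RefSeq on GRCm38.p6.

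Named are all 10 ligands, the other Wnts, up to 3 largest rises and 3 largest falls at P28 of each pathway list among called genes with separate libraries, the 3 genes most like each ligand called at P24 or P28, and genes overlapping a ligand or within 50 kb of it (those called and some others). Fzd8, Ror1, Wls and Sdc1 were named beyond that rule after their values were seen. The ligands and lists were chosen with earlier results of these data known.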

Additional observations from a re-analysis of the deposited data

Results flagged for a closer look

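The effect of genotype differed between anagen and telogen, by a test of that difference over 24 libraries, for 5 ligands. The difference on the log2 scale was 3.01 for Wnt4, 2.82 for Wnt6, 2.02 for Wnt10a, -0.93 for Wnt5a and -0.80 for Wnt9a, with limma's adjusted p of 0.00023, 0.00014, 0.00653, 0.00311 and 0.0436. In Wnt4 the anagen effects were positive in 2 of 2 ages. Those in telogen were -0.03 ± 0.41 at P20 and -0.30 ± 0.60 at P60 (SE), and 0.41 at P60 without dM1/2 replicate 1. Wnt6 and Wnt10a had positive differences at P20 as well (0.98 and 0.54) and negative ones at P60 (-0.43 and -1.13), which rested partly on P60 dM1/2 replicate 1. The P24 difference of Wnt10a, 0.41, was no larger than its P20 difference. Hair-cycle stage, sex and depth cannot be told apart in this comparison. The effect of genotype also differed between P28 and P24 for Wnt10a, by 2.63 on the log2 scale (adjusted p = 0.0383 over 12 libraries), with dM1/2 above control in all libraries at P28 and an overlap at P24. With 3 libraries a group, no library was tested as lying apart from its group.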

How the results depend on the processing

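Of 1561 refits of single ligands and pathway genes, 1391 kept their direction and their side of the threshold, 106 lost a call, 25 gained one and 39 changed sign. The rises of Wnt6 at P24 and P28 and of Wnt4 and Wnt10a at P28, and the fall of Wnt5b at P28, were called in every setting run. The number of ligands called moved by more than 1.5 times as follows. DESeq2 gave 1 at P20 in place of 0, 4 in place of 1 for the P28 less the P24 effect, and 2 in place of 0 for control P28 less P24, and without the filter on low values the P28 less P24 effect gave 0. With the replicate block the number of ligands was 1 at P20, 2 at P24 in place of 5, and 0 for the P28 less P24 effect. The labels share replicate numbers but do not say what they mark, and same-numbered libraries of the genotypes had deviations correlated at 0.231, 0.082 and 0.116 at P20, -0.179, 0.043 and -0.401 at P24, -0.152, 0.027 and -0.229 at P28, and 0.344, 0.024 and 0.171 at P60, so the numbers were not taken as pairs. Over all genes the block called 439 in place of 60 at P20, 2366 in place of 3735 at P24, 6 in place of 0 at P60, 0 in place of 100 for the P28 less P24 effect and 27 in place of 204 for control P28 less P24. With single libraries left out, the number of ligands ran from 0 to 2 at P20, 1 to 5 at P24, 4 to 8 at P28, 4 to 6 for anagen less telogen, 0 to 2 for the P28 less P24 effect, 0 to 4 for dM1/2 P28 less P24 and 6 to 9 over the 4 ages, and it was 0 throughout at P60 and for control P28 less P24. With the longest transcript as gene length, 67 of 80 places in the order of levels stayed.

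Sign changes were seen for log2 fold changes of ligands that were not called, and the cause was not tested. With edgeR (TMM), edgeR (size factors) and DESeq2, Wnt2 at P24 was -0.22, -0.21 and -0.21, Wnt2b at P28 -0.31, -0.35 and -0.36, Wnt10b at P28 -0.61, -0.65 and -0.66, Wnt10b at P60 -0.03, -0.02 and -0.01, and Wnt4 in dM1/2 P28 less P24 -0.01, -0.02 and -0.02. A pseudocount of 10 gave -0.01 for Wnt2b and -0.18 for Wnt10b at P28. Without single libraries the ranges were -0.27 to 0.36 (Wnt4), -0.40 to 0.01 (Wnt9a) and -0.22 to 0.14 (Wnt11) at P20, -0.53 to 0.93 (Wnt2) and -0.88 to 0.47 (Wnt10b) at P24, -0.57 to 0.75 (Wnt2b) and -1.17 to 0.78 (Wnt10b) at P28, -0.67 to 0.41 (Wnt4), -1.07 to 0.34 (Wnt6) and -0.33 to 0.38 (Wnt10b) at P60, -0.82 to 0.09 for Wnt2 in anagen less telogen and -0.26 to 0.28 for Wnt4 in dM1/2 P28 less P24. In any library, 0 reads in a library allow up to 3.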
